A study of Mus musculus with 6 samples.

Results

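The bodies of mouse genes of 400 kb or more were followed through Hi-C maps of ES cells (mouse embryonic stem cells, labelled strain 129), an assay that counts how often 2 stretches of chromatin are ligated to each other. Of the autosomal protein-coding genes in the GRCm38.p6 RefSeq gene table, 338 measured 400 kb or more from start to end, and 4356 autosomal bins of 50 kb lay wholly inside them, which is 9.09% of the 47875 autosomal bins with contacts. The lengths ran to 2270506 bp in Ptprd, with a median of 564884 bp and 55 genes of 1 Mb or more. The shortest members were Fam189a1 at 400438 bp and Dst at 400775 bp, and Ano4, at 396274 bp, lay just outside. The study compared 3 libraries of cells labelled with the genotype GFP-CTCF-Del8 (Del8), whose CTCF lacks zinc finger 8 and carries GFP, with 3 libraries labelled wild type (WT), all described as biological replicates. The labels do not say whether the wild-type cells also carry GFP on CTCF, nor whether each genotype is 1 clone. Nuclei were cut with MboI before ligation, and nothing in contact counts identifies the cell type, so the labelled cell type was not checked.

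Genes of this length consist mostly of intron, often lie in gene-poor stretches, and many encode adhesion molecules, ion channels and synaptic scaffolds used mainly by neurons. CTCF binds DNA through a row of zinc fingers and halts cohesin, the ring complex that extrudes chromatin loops, so that contacts are frequent between 2 bound sites and rarer across them. A map bin with little contact across it is called a boundary, and the interior of a domain has much contact across each of its bins.

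The starts of 259 of the 338 genes were found in the RefSeq promoter table of GRCm38.p6, each promoter taken from 250 bases before to 50 after a start. The CTCF core letters CCANNAGNNGGC, searched on both strands, stood in 8 of these genes' 395 promoters (2.03%) and in 797 of all 32851 promoters (2.43%). The MboI site GATC was in 47.1% of the long genes' promoters and in 47.97% of all. Shown first are the only 2 promoters with the CTCF core whose bin could be scored in all 6 libraries, of Tnr (tenascin R, an extracellular matrix protein of the brain; chr1:159523519-159523818, plus strand) and of an internal start of Etl4 (chr2:20509797-20510096, plus strand), with the core in capitals.
Tnr: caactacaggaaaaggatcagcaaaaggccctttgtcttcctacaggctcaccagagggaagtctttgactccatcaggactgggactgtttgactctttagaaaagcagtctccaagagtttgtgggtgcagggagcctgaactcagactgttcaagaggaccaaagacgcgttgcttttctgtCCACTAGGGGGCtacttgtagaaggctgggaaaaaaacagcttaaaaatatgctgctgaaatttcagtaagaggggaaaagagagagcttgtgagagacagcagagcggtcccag
Etl4: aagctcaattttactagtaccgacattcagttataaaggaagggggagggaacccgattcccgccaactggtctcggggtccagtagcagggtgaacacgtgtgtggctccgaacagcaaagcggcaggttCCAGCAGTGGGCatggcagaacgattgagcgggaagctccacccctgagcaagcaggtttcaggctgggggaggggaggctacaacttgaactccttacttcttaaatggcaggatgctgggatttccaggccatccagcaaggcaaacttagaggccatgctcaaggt
The score of contact across a bin, defined below, was lower in Del8 at both, by 0.083 on the log2 scale at Tnr (limma adjusted p = 0.0454) and by 0.16 at Etl4 (limma adjusted p = 0.000396). Of all 1386 scored bins in long genes 52.9% were lower in that score, and a link to the core was not tested. Next are the promoters whose bins had the deepest fall and the largest rise in that score among the 5′ ends of long genes, of Slc24a3 (a sodium, calcium and potassium exchanger; chr2:145167525-145167824, plus strand) and Mecom (a zinc finger transcription factor; chr3:30509710-30510009, minus strand), with GATC in capitals.
Slc24a3: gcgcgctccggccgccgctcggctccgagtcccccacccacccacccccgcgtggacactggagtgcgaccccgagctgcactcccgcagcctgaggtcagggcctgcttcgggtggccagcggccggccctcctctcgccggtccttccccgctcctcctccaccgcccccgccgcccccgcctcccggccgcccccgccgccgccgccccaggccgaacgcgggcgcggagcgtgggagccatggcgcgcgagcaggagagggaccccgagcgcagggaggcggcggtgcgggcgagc
Mecom: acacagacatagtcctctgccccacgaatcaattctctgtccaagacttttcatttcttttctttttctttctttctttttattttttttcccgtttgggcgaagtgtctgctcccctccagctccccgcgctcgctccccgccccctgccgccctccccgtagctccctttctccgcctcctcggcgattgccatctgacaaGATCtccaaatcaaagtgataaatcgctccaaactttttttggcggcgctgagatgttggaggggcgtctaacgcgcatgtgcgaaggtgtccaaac
Neither holds the CTCF core. The Slc24a3 window is 80.7% G and C and has no GATC, while the Mecom window is 52% G and C and has 1. A match or its lack describes these letters in these windows, and CTCF binding was not measured here.

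The deposited libraries held between 20289219 and 57489838 contacts within chromosomes after each within-bin contact was counted once (the values on the diagonal were even in every library, so within-bin contacts are taken as deposited at 2 per contact and were divided accordingly). Del8 libraries had 57489838, 40736001 and 33029985 contacts, and WT libraries had 20289219, 20750791 and 32185419. In each library some bins had no within-bin contacts, which had almost no contacts with each other (18 in WT replicate 3 and 0 in the other 5 libraries), and such bins were treated as removed before deposit. Bins with at least 20 contacts numbered 4344, 4338 and 4337 of the 4356 member bins in the Del8 libraries and 4121, 4108 and 4338 in the WT libraries. Bins that still had within-bin contacts numbered 4318, 4209 and 3589 in the Del8 libraries, against 2021, 2034 and 4149 in the WT libraries. WT replicates 1 and 2 thus stood apart. Compared over the contact totals of usable bins, WT replicate 3 differed less from the Del8 libraries (chi-square per degree of freedom 2.84, 2.49 and 2.55) than from WT replicates 1 and 2 (4.31 and 4.99), which differed from each other by 3.93, while the Del8 libraries differed among themselves by 1.52 to 1.72. WT replicate 3 was therefore nearer to Del8 than to its own group in this measure. WT replicates 1 and 2 kept 46.4% and 46.7% of the member bins but 61.6% of the other bins in each. The removal thus fell more on long genes than on the rest, whereas WT replicate 3 kept 95.2% of member bins and 94.9% of others. The median member bin had 1697, 1213 and 1031 contacts in the Del8 libraries and 292, 270 and 1003 in the WT libraries. All comparisons below therefore used bins with within-bin contacts in all 6 libraries, which left 1881 member bins (43.2%, against 59.3% of other bins). The 3589 member bins kept in the other 4 libraries form a wider set. For it the calls of insulation score, body contact and bin pairs, the median flank contact and the contact by distance are also given. The profiles at gene ends, the boundaries, the compartment split, the classes of score and the gene lists are given for the bins usable in all 6 libraries only.

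**Figure D1:**
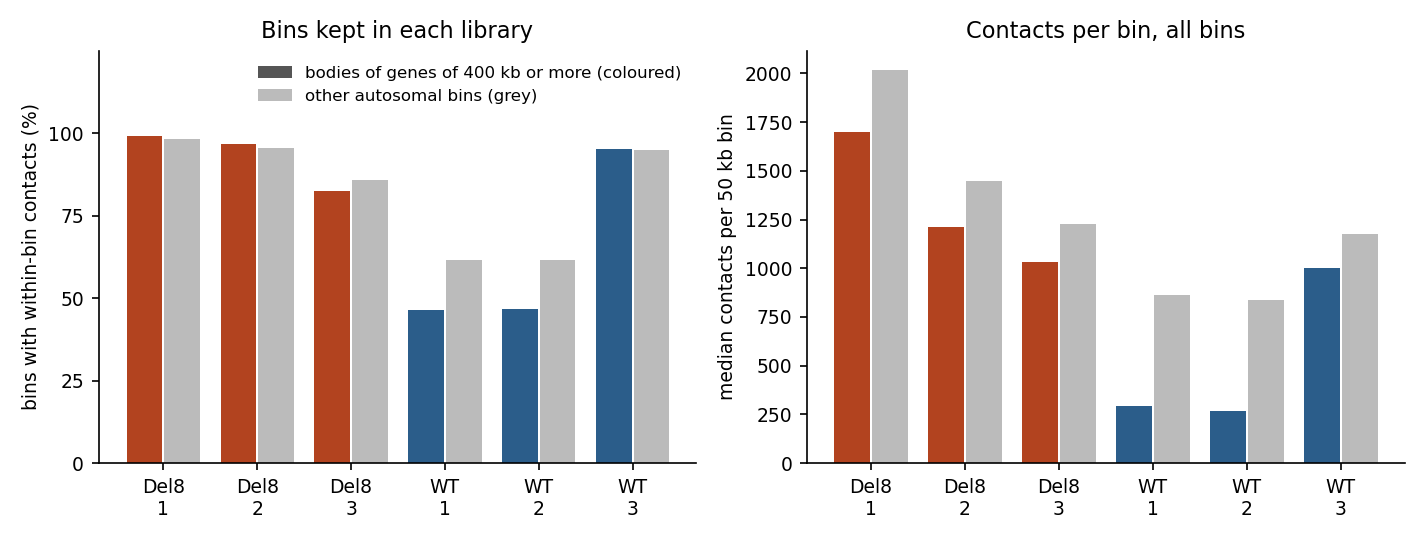
Left, percent of 50 kb bins with within-bin contacts in each library, for bins inside genes of 400 kb or more (coloured; Del8 in red, WT in blue) and for other autosomal bins (grey). Right, median contacts per bin over all bins. WT replicates 1 and 2 kept 46.4% and 46.7% of the bins inside long genes, and the other 4 libraries kept 82.4% or more.

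The loss was uneven between genes. In 78 genes no bin was usable, in 171 some were, and in 89 all were. Ptprd (a receptor tyrosine phosphatase of synapses), with 45 whole bins, kept 44, 37 and 15 of them in the Del8 libraries and 0, 0 and 34 in the WT libraries, so that none was usable. Fhit, a nucleotide hydrolase gene at a common fragile site, had none of its 31 bins usable. Lsamp (a neuronal adhesion protein) had 1 of 43 and Cntnap2 (a contactin-associated adhesion protein) 5 of 44. Csmd1, a complement-control membrane protein on chromosome 8, had 31 of 32. Chromosome 8 had 1.27 to 1.29 times the median contacts per usable bin of the other autosomes in the Del8 libraries and 1.31 to 1.39 times in the WT libraries. It held 18.0% of the scored bins inside long genes, against 8.66% of the other scored bins, and its part in the results was measured by leaving it out.

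Contact across bins inside long genes, measured against the average of the chromosome, was lower in Del8 than in WT. The insulation score takes balanced contact between the 500 kb before and the 500 kb after a bin, averages it, and gives its log2 ratio to the average over the chromosome, so a high score is a bin inside a domain and a low one a boundary. Balancing scales each library's map so that all its bins have the same total. Neighbouring bins share much of the contact they are scored on, so bins of 1 gene are not independent observations. In genes shorter than 1 Mb that contact also reaches beyond the gene. The median score over the 1386 scored bins inside long genes was 0.17, 0.18 and 0.18 in the Del8 libraries and 0.27, 0.26 and 0.25 in the WT libraries, with no overlap. Over all other scored bins it was -0.04, -0.05 and -0.05 in Del8 and -0.07 in each WT library. In limma's moderated test with Benjamini-Hochberg adjustment over all 21874 scored bins, 733 of the 1386 (52.9%) were lower in Del8 and 157 (11.3%) were higher at an adjusted p under 0.05, and 496 did not pass. The background over all scored bins was 64.4% called, 31.3% lower and 33% higher. The median difference, Del8 minus WT, was -0.09 in long genes and 0.00 over all scored bins. In the 2118 bins inside genes of 150 to under 400 kb, 37.8% were lower and 23.7% were higher. The share that was lower was similar by length within the long genes, at 53.02% for genes of 400 to under 500 kb, 54.9% for 500 to under 800 kb and 50% for 800 kb or more.

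The distribution of scores was narrower in Del8 over all bins, whose middle 50% ran from -0.26 to 0.19 in Del8 and from -0.32 to 0.23 in WT. Bins with high scores were therefore more often lower and bins with low scores more often higher, inside and outside genes. Long genes are rich in high scores, with 52.1% of their scored bins in the top 25% of all scored bins by the mean over the 6 libraries. Within that class 66.8% of bins in long genes and 53.9% of other bins were lower in Del8, and 3.601% and 13.7% were higher. In the class below it 44.4% of bins in long genes and 32.5% of others were lower. In the lowest class 20% of bins in long genes and 13.9% of others were lower, and 43.1% and 54.6% were higher. These shares are descriptions, and the difference between long genes and other bins of the same level was not tested.

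**Figure D2:**
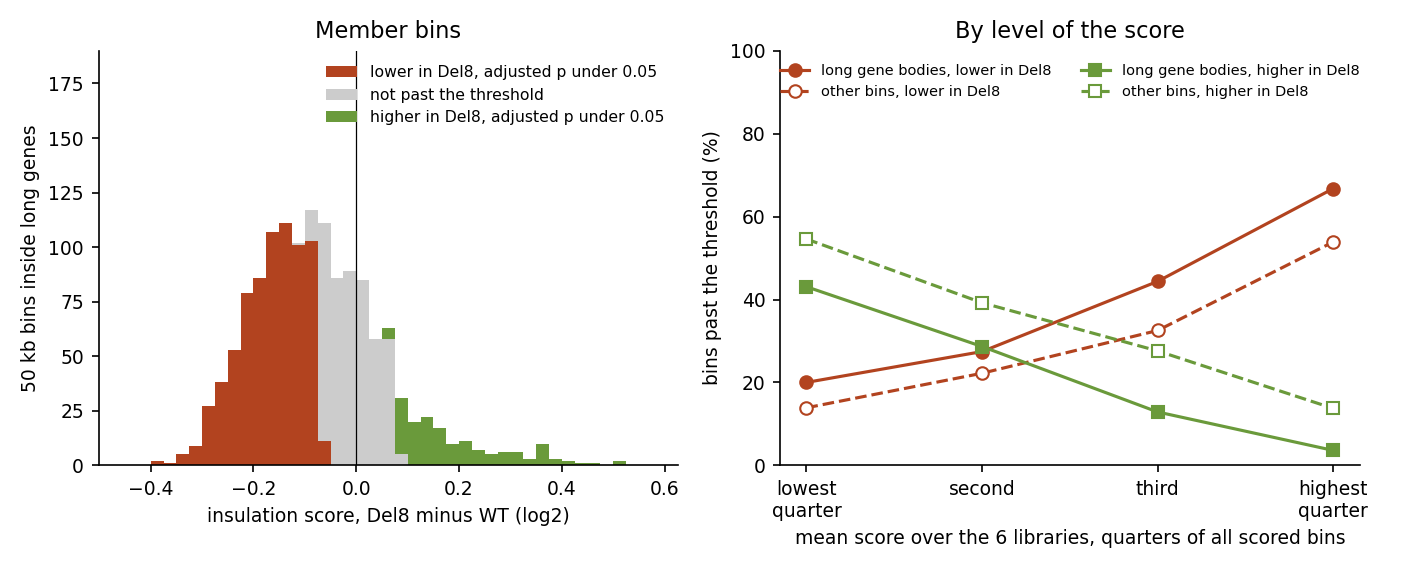
Left, number of scored 50 kb bins inside long genes by the difference in insulation score, Del8 minus WT, stacked by whether limma's adjusted p was under 0.05. Right, percent of bins lower (red) or higher (green) in Del8 in 4 equal classes of all scored bins by their mean score over the 6 libraries; filled symbols are bins inside long genes and open symbols all other bins. In the top class 66.8% of bins in long genes and 53.9% of the others were lower in Del8.

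The result was measured in several parts of the data. Without chromosome 8, 615 of 1136 bins in long genes (54.1%) were lower and 135 (11.9%) were higher. Of the 18714 other bins without chromosome 8, 29.9% were lower and 34.4% were higher. In the bins kept in the 4 libraries other than WT replicates 1 and 2, a larger set in which WT replicate 3 stands alone and is assumed to vary like Del8, 1063 of 3165 bins (33.6%) were lower and 385 (12.2%) were higher, against a background of 22.8% lower and 26.4% higher. Bins in the A compartment, the more active of the 2 nuclear compartments as drawn from the summed map, made up 44.9% of the usable bins in long genes with a compartment call and 68.5% of other bins, the rest being in B. In long genes 57.9% of B bins and 47.7% of A bins were lower in Del8. Outside long genes these shares were 38.3% of B bins and 26.9% of A bins. Chromosome 13 went the other way, with 13 of its 55 bins in long genes lower (23.6%) and 19 higher (34.5%). A screen that kept every bin with 20 contacts in each library took in bins removed from WT replicates 1 and 2. It gave 0 calls in either direction in long genes and 0 over all 36012 scored bins.

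The genes differed in how evenly they moved. Of the 144 genes with 5 or more scored bins, 112 had more bins lower than higher in Del8 and 21 had more higher than lower. The same counts were not made for shorter genes. In bins of genes of 150 to under 400 kb, 37.8% were lower and 23.7% higher. Neighbouring bins of a gene share much of their contact, so they are not separate observations. All scored bins were lower in 20 of the 144 long genes. The widest of these falls was in Tln2 (talin 2, which links integrins to actin), where all 7 bins were lower and the median score was -0.05, -0.10 and -0.07 in the Del8 libraries, against 0.20, 0.19 and 0.12 in the WT libraries. In Snd1 (a nuclease of the RNA silencing complex) all 8 bins were lower, at median scores of 0.43, 0.41 and 0.48 in Del8 and 0.68, 0.69 and 0.68 in WT. Kirrel3 and Plxna4, a neuronal adhesion protein and a semaphorin co-receptor, had all 6 and all 8 bins lower, with median differences of -0.24 in each. Tenm4 (a teneurin adhesion protein) had all 14 bins lower, at 0.08, 0.07 and 0.07 in Del8 and 0.27 in each WT library. All scored bins were higher in 3 genes. Phactr1, a regulator of protein phosphatase 1 and actin, had all 8 higher, at median scores of -0.06, -0.12 and -0.20 in the Del8 libraries and -0.40, -0.51 and -0.55 in the WT libraries. Ank2 (ankyrin B, a membrane-skeleton adaptor) had all 7 higher, at 0.46, 0.51 and 0.45 in Del8 and 0.25, 0.25 and 0.27 in WT. Rabgap1l, a GTPase-activating protein of membrane traffic, had all 6 higher, at 0.14, 0.11 and 0.15 in Del8 and -0.004, 0.08 and -0.17 in WT. None of these gene medians overlapped between Del8 and WT, but the genes were picked out by their calls.

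The deepest single fall was in Dgki, a diacylglycerol kinase, at chr6:37200001-37250000, where the score was 0.14, 0.10 and 0.11 in the Del8 libraries and 0.45, 0.57 and 0.51 in the WT libraries. The difference was -0.40 ± 0.034 (SE; limma adjusted p = 5.4e-07), and all 4 scored bins of the gene were lower. Dlgap1, which encodes a postsynaptic scaffold protein, held both a fall and a rise. At chr17:70450001-70500000 its score was 0.16, 0.10 and 0.07 in Del8 and 0.48, 0.52 and 0.38 in WT. At chr17:70650001-70700000, 200 kb away, it was 0.17, 0.23 and 0.18 in Del8 and -0.25, -0.24 and -0.26 in WT. The second bin was thus a dip in the WT maps, while in each Del8 library its score was no lower than that of the first. Kalrn, a guanine nucleotide exchange factor of dendritic spines, had a bin that was lower by 0.32 at its 5′ end and another that was higher by 0.40. Frmd4a (a cell-polarity scaffold), Dpp6 (a potassium channel subunit) and Zmat4 (a zinc finger protein) completed the 6 deepest falls, at -0.34, -0.33 and -0.33. The largest rise, 0.52 ± 0.041 (SE; limma adjusted p = 2.6e-07), was at chr18:37700001-37750000 inside Gm37013, Gm38666 and Gm38667, 3 overlapping gene models whose bins are the same and are counted once. There the score was 0.02, -0.02 and 0.06 in Del8 and -0.58, -0.52 and -0.40 in WT. Gm37013, the longest of the 3 models, spans chr18:36952648-37841873, and whether shorter genes lie inside it was not examined. Next came Phactr1 at 0.46, the second bin of Dlgap1 at 0.44, Dock4 (an exchange factor for Rac) at 0.42, the bin of Kalrn at 0.40 and Auts2 (a neurodevelopmental regulator of transcription) at 0.38. All 12 of these bins passed with any single library left out.

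Around the ends of long genes the mean scores were lower in Del8 at every distance inside the genes and mixed outside. For genes whose strand the promoter table gives, the mean score 250 kb inside the 5′ end was 0.25, 0.24 and 0.25 in the Del8 libraries and 0.35, 0.35 and 0.33 in the WT libraries, over 96 genes. In the bin of the 5′ end itself it was -0.01, 0.01 and -0.01 in Del8 and 0.02, 0.01 and 0.03 in WT, over 95 genes. At 150 kb before the 5′ end it was -0.07, -0.06 and -0.07 in Del8 and -0.11, -0.11 and -0.10 in WT, over 98 genes. Before the 5′ end all Del8 means lay above all WT means from 150 to 350 kb away, and the groups overlapped at 50, 100 and 400 kb. At 50 kb before it the means were -0.06, -0.05 and -0.06 in Del8 and -0.07, -0.07 and -0.05 in WT. At the 3′ ends the mean score 250 kb inside was 0.24, 0.24 and 0.25 in Del8 and 0.33, 0.33 and 0.31 in WT, and 250 kb beyond it was -0.02 in each Del8 library and -0.05, -0.06 and -0.04 in WT. Beyond the 3′ end the Del8 means lay above the WT means from 150 to 400 kb away and overlapped with them at 50 and 100 kb. The median difference per gene, Del8 minus WT, was -0.12 to -0.05 at the distances inside from either end, but only -0.03 to 0.03 before the 5′ end and -0.03 to 0.01 beyond the 3′ end, so the typical gene differed little outside. At 250 kb beyond the 3′ end it was -0.001. The same genes are not present at every distance, because bins drop out.

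**Figure D3:**
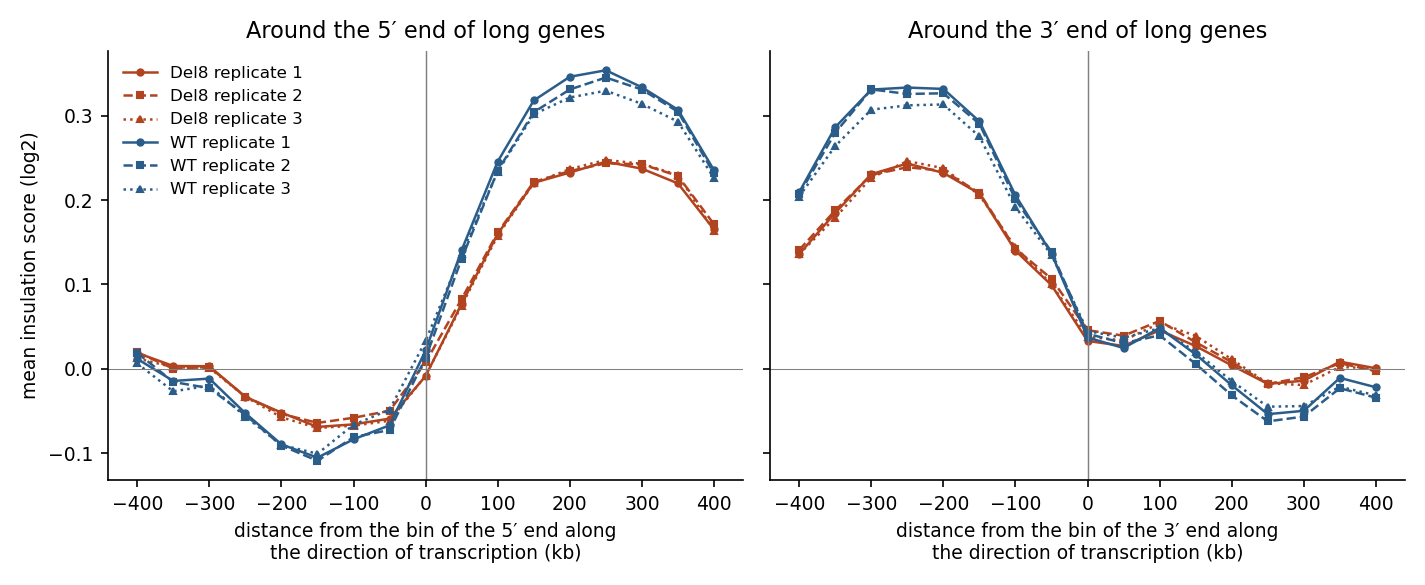
Mean insulation score (log2) per library in 50 kb bins at distances along the direction of transcription from the bin of the 5′ end (left) and of the 3′ end (right) of genes of 400 kb or more; Del8 in red, WT in blue. Inside the genes the 3 Del8 lines lie below the 3 WT lines, for example 0.24 to 0.25 against 0.33 to 0.35 at 250 kb from the 5′ end.

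Single gene ends went both ways. Of the 95 scored 5′ end bins, 41 were lower in Del8 and 25 higher, and of the 102 scored 3′ end bins, 41 were lower and 27 higher, beside the background over all scored bins of 31.3% lower and 33% higher. These counts were not tested against that background. The 5′ end of Slc24a3 had a score of 0.01, -0.03 and 0.05 in Del8 and 0.34, 0.32 and 0.42 in WT, the deepest fall. Its 3′ end had -0.06, -0.03 and -0.13 in Del8 and -0.57, -0.44 and -0.55 in WT. The gene thus fell by 0.35 at its start and was higher by 0.45 at its end. The 5′ end of Mecom was at -0.03, 0.00 and 0.06 in Del8 and at -0.37, -0.32 and -0.34 in WT. The largest rise at a gene end was the 3′ end of Phactr1, at -0.34, -0.30 and -0.29 in Del8 and -0.79, -0.94 and -0.88 in WT. The 3′ end of Creb5, a CREB-family transcription factor, followed at 0.02, 0.09 and 0.12 in Del8 and -0.36 in each WT library.

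Few boundaries were called in long genes. They were called on the map summed over the 6 libraries, as local minima of the score at least 0.2 deep. A call also needed a score in every bin within 250 kb on both sides. In long genes 15 of the 1386 scored bins (1.08%) were boundaries, against 882 of the 20488 other bins (4.30%) and 19 of 2118 bins in genes of 150 to under 400 kb (0.897%). Scored bins near gaps could not be called but are counted in these shares. Gaps were more common in long genes, where 43.2% of bins were usable, against 59.3% of other bins. The shares therefore do not measure the density of boundaries alone. Boundaries stood in 8 of the 102 bins that hold a 3′ end (7.84%) and in 1 of the 95 that hold a 5′ end. Among the 15, 5 were higher in Del8 (in Asic2, Atxn1, Arhgap26, Camta1 and Csmd1) and 4 were lower (in Agap1, Magi1, Zfhx3 and Rora), while among the 882 others 467 were higher and 149 lower. The boundary near the end of Csmd1, at chr8:17450001-17500000, had -0.02, -0.02 and -0.04 in Del8 and -0.30, -0.26 and -0.18 in WT. The boundary in Magi1, a membrane-associated scaffold gene, moved the other way, with -0.46, -0.47 and -0.54 in Del8 and -0.31, -0.26 and -0.31 in WT.

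The lower scores came with a change in how contact depends on distance. Balanced contact between bins inside the same long gene, divided by the value for every pair on the chromosome that lies equally far apart, was 1.25, 1.24 and 1.24 in the Del8 libraries and 1.34, 1.33 and 1.32 in the WT libraries at 350 to 500 kb. At 550 kb to 1 Mb it was 1.41, 1.41 and 1.42 in Del8 and 1.56, 1.52 and 1.502 in WT. At 50 to 150 kb it was 1.00 ± 0.0029 in Del8 and 1.00 ± 0.0020 in WT (SD, n = 3 each). At 200 to 300 kb it was 1.12, 1.12 and 1.13 in Del8 and 1.16, 1.15 and 1.16 in WT. The excess of contact inside long genes over the chromosome was thus smaller in Del8 in each of these bands from 200 kb up, with no overlap between the groups. It was not particular to them. In genes of 150 to under 400 kb the ratio at 200 to 300 kb was 1.19, 1.17 and 1.17 in Del8 and 1.23, 1.25 and 1.22 in WT. At single distances from 200 kb up inside long genes, the groups overlapped at 650, 850, 950 and 1000 kb. At 650 kb the ratio was 1.37, 1.37 and 1.38 in Del8 and 1.48, 1.58 and 1.34 in WT, so that WT replicate 3 lay below the Del8 libraries. The contact itself differed less. Scaled so that the contacts of each bin sum to 10000, a pair inside a long gene 350 to 500 kb apart had 191 ± 2.8 in Del8 and 193 ± 4.5 in WT (SD, n = 3 each), a difference of -0.56%. All pairs at those distances had 154 ± 1.6 in Del8 and 145 ± 2.3 in WT, which is 6.24% more in Del8. At 550 kb to 1 Mb pairs inside long genes were 2.45% higher in Del8, with overlap between the groups, and all pairs were 10.9% higher. The fall inside long genes is therefore relative to the rest of the chromosome. In the wider set of bins the ratio at 350 to 500 kb was 1.14, 1.14 and 1.14 in Del8 and 1.18 in WT replicate 3, so the direction was the same and the gap, 0.041, was smaller than the 0.085 above. These ratios are descriptions with no test: with 3 libraries a group an exact permutation test cannot go below p = 0.1.

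**Figure D4:**
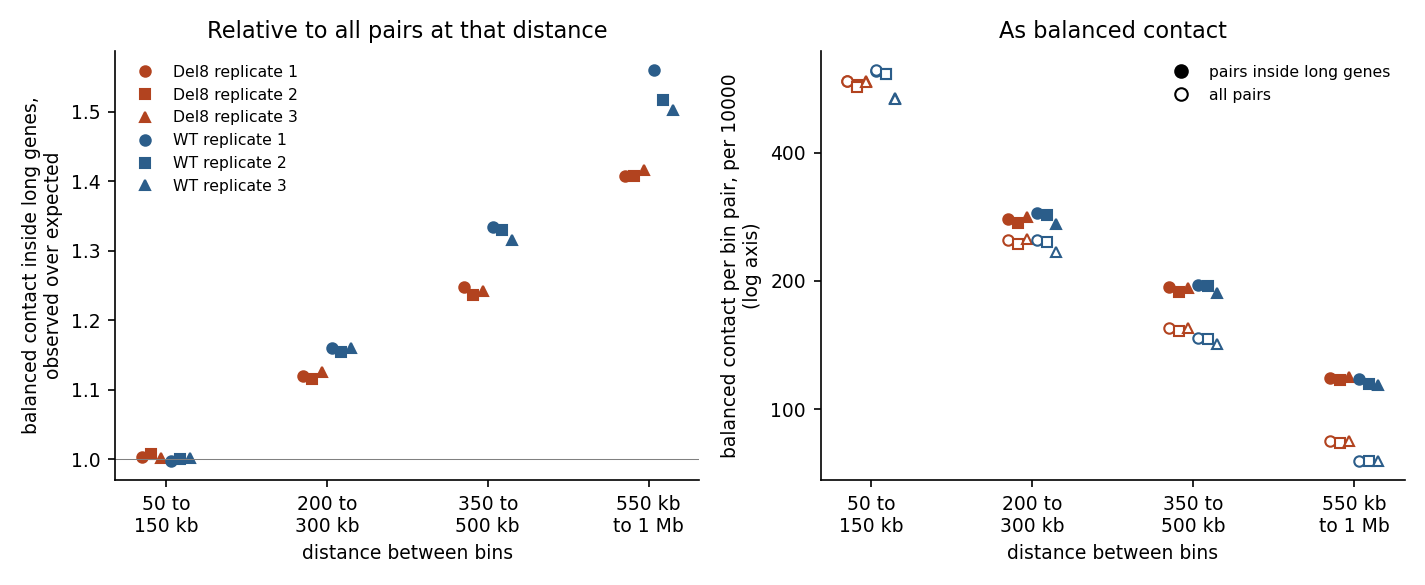
Left, balanced contact between bins inside the same long gene over the value for every pair on the chromosome that lies equally far apart, per library and distance class. Right, the balanced contact per bin pair (per 10000 of a bin's total, log axis) inside long genes (filled) and over all pairs (open). At 350 to 500 kb the ratio was 1.24 to 1.25 in Del8 and 1.32 to 1.34 in WT, while the contact per pair inside long genes was 191 in Del8 and 193 in WT on average.

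Counted gene by gene, contact inside the body was lower in Del8 in 24 of the 215 long genes with 3 or more usable bins and higher in 0, in edgeR's quasi-likelihood test on the contacts with those expected from distance and chromosome as offsets. The adjustment was over 739 genes of 150 kb or more, of which 5.95% were called, 5.28% lower and 0.677% higher. At an unadjusted p under 0.05 edgeR had 64 long genes lower and 6 higher, against 131 and 29 over all 739 genes. DESeq2 called 17 long genes lower and 0 higher, against 24 and 1 over all genes. The long genes that edgeR called lower include Gm37013, Gm38666 and Gm38667, which share all their bins, so that 1 locus is counted 3 times. The median log2 ratio of Del8 to WT was -0.06 over the long genes and -0.03 over all 739. In the wider set of bins 21 of 324 long genes were lower (6.48%) and 4 higher, against 3.36% lower and 0.935% higher over 1070 genes. The calls of lower body contact rested on few libraries. With a Del8 replicate left out they numbered 4 (without replicate 1), 0 (without replicate 2) and 7 (without replicate 3). Over all 739 genes they numbered 5, 1 and 10 in the same order. Without WT replicate 1 and without WT replicate 3, 4 and 1 long genes were called higher, against 8 and 6 over all genes. With offsets that also hold each bin's bias from balancing, 32 long genes were lower and 16 higher, against 65 and 41 over all genes. With TMM scaling in place of the offsets 2 long genes were lower and 5 higher, against 13 and 19 over all genes.

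Unc13c, a synaptic vesicle priming factor, had the largest fall past the threshold. Its 6 usable bins shared 776, 560 and 537 contacts in the Del8 libraries, or 0.59, 0.60 and 0.66 of the expected number, and 494, 426 and 491 in the WT libraries, or 0.82, 0.69 and 0.69. All Del8 values lay below all WT values, and WT replicate 1 was the highest. The log2 ratio was -0.25 ± 0.072 (SE; edgeR adjusted p = 0.029). Dock4 had 0.62, 0.61 and 0.60 of the expected contacts in Del8 and 0.79, 0.69 and 0.68 in WT, a log2 ratio of -0.23 ± 0.055 (SE; edgeR adjusted p = 0.0095). Pde10a, a phosphodiesterase for cyclic nucleotides, had 0.88, 0.87 and 0.92 in Del8 and 1.03, 1.04 and 1.00 in WT, a log2 ratio of -0.21 ± 0.042 (SE; edgeR adjusted p = 0.0029). The rest of the 12 largest falls were in Sorcs3, Etl4, Car10, Ppp2r2b, Sox5, Ctnna3, Dpp6, Pde4d and Syn3, from -0.17 in Sorcs3 to -0.14 in Syn3. All 12 lost their call without Del8 replicate 2. In Sorcs3, Car10 and Ctnna3 the sign turned with the bin biases in the offsets, to 0.07, 0.03 and 0.02. Of the 10 longest genes tested, Ctnna3 (an alpha catenin of cell junctions) and Pde4d (a cyclic AMP phosphodiesterase) passed and Cntnap2, Dlg2, Csmd1, Nrxn3, Rbfox1, Magi2, Tenm3 and Agbl4 did not.

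The longest genes could be followed mainly in the wider set of bins. There Ptprd had 15 bins that shared 1674, 1197 and 1089 contacts in Del8 and 947 in WT replicate 3, with balanced ratios to expectation of 1.74, 1.76 and 1.79 in Del8 and 1.70 in WT replicate 3. Lsamp, with 26 bins, had 1.38, 1.37 and 1.35 in Del8 and 1.35 in WT replicate 3. Macrod2 (an ADP-ribose hydrolase), with 38 bins, had 1.00, 1.01 and 0.99 in Del8 and 1.05 in WT replicate 3. Lrp1b, a lipoprotein receptor, had 8 bins and values of 2.87, 2.83 and 2.60 in Del8 and 2.23 in WT replicate 3. Of the 10 longest genes, 7 had all 3 Del8 values above the single WT value (Ptprd, Cntnap2, Lsamp, Lrp1b, Nrxn3, Fhit and Ctnna3), Macrod2 and Csmd1 had all 3 below it, and Dlg2 had values on both sides. These balanced ratios did not always share the sign of edgeR's log2 ratio on the unbalanced contacts, which was -0.05 in Ptprd, -0.07 in Fhit and -0.02 in Ctnna3. With 1 WT library there is no replicate check of these values, and the same count was not made over other genes. Some gaps were very small, such as 1.3436 in Del8 replicate 3 and 1.3424 in WT replicate 3 for Cntnap2. The counts of genes above and below are therefore no result about long genes.

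Contact of a gene with the 500 kb on either side of it was called more often and in both directions. It was counted over pairs of a body bin and an outside bin up to 500 kb apart. Of 214 long genes, 64 were lower and 30 higher in Del8 (edgeR, adjusted over 736 genes, of which 32.6% were called, 19.6% lower and 13% higher), and the 30 again count the locus of Gm37013, Gm38666 and Gm38667 3 times. The median log2 ratio was -0.03 over the long genes and -0.02 over all 736. Bcas3, a cytoskeletal regulator, had the largest rise. Its body and flanks shared 4206, 2988 and 2551 contacts in the Del8 libraries, 0.98, 0.99 and 0.98 of the expected number, and 1266, 1298 and 1596 in the WT libraries, 0.73, 0.70 and 0.71 of the expected number. The groups lay far apart, at a log2 ratio of 0.46 ± 0.036 (SE; edgeR adjusted p = 1.5e-13). Inside its own body 6 of the 8 scored bins of Bcas3 had lower insulation scores and 0 had higher. Slc4a4 (a sodium bicarbonate cotransporter) and Mecom followed at log2 ratios of 0.42 and 0.41. Mecom had 0.83, 0.81 and 0.88 of the expected contacts in Del8 and 0.66, 0.60 and 0.64 in WT. Prkg1, Ctnna3, Gmds, Nell1, Cacna1d and the 3 overlapping models Gm37013, Gm38666 and Gm38667 were also among the 12 largest rises, between 0.22 and 0.28.

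The largest falls toward the flanks were in Tafa1 (a secreted neurokine) at a log2 ratio of -0.47, Sgcz (a sarcoglycan) at -0.46, Cadps (a vesicle priming factor) at -0.36, Akap6 (an anchor of protein kinase A) at -0.33 and Sorcs3 (a sorting receptor) at -0.30. Tafa1 had 0.63, 0.61 and 0.54 of the expected contacts in Del8 and 0.82, 0.94 and 0.74 in WT, but from 3 usable bins and 106 to 201 contacts a library. Sorcs3, with 8 bins, had 1.06, 1.07 and 1.02 in Del8 and 1.29, 1.30 and 1.28 in WT (edgeR adjusted p = 1.4e-06). Sgcz turned to 0.01 in the wider set of bins. Dgki, Pde4b, Cep112, Zfp385b, Dlg2, Esrrg and Prkce made up the 12, down to -0.24 in Prkce. Of the genes named for their flanks, Tafa1, Pde4b, Dlg2, Nell1, Ctnna3 and Prkg1 lost their call when 1 or another library was left out. Of the 10 longest genes tested, Tenm2 and Cntnap2 were also higher, at 0.17 and 0.20, and Tenm3 was lower, at -0.15, while Pde4d, Magi2, Rbfox1, Nrxn3 and Csmd1 did not pass; Tenm2 and Cntnap2 lost their call without Del8 replicate 2, among others. Without Del8 replicate 2 the long genes called higher numbered 17, against 60 over all 736 genes. Without WT replicate 2 they numbered 18, against 64 over all genes. Among the 24 genes whose body contact was lower, flank contact was higher in 8, among them Dock4, Ctnna3, Cacna1d and Tmem132d, and lower in 6, which were Sorcs3, Car10, Sox5, Dab1, Rbms3 and Nrg1. The 8 include the 3 overlapping models, which are 1 locus. Of all 214 long genes tested, flank contact was higher in 30 and lower in 64, and whether body and flank calls go together was not tested.

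**Figure D5:**
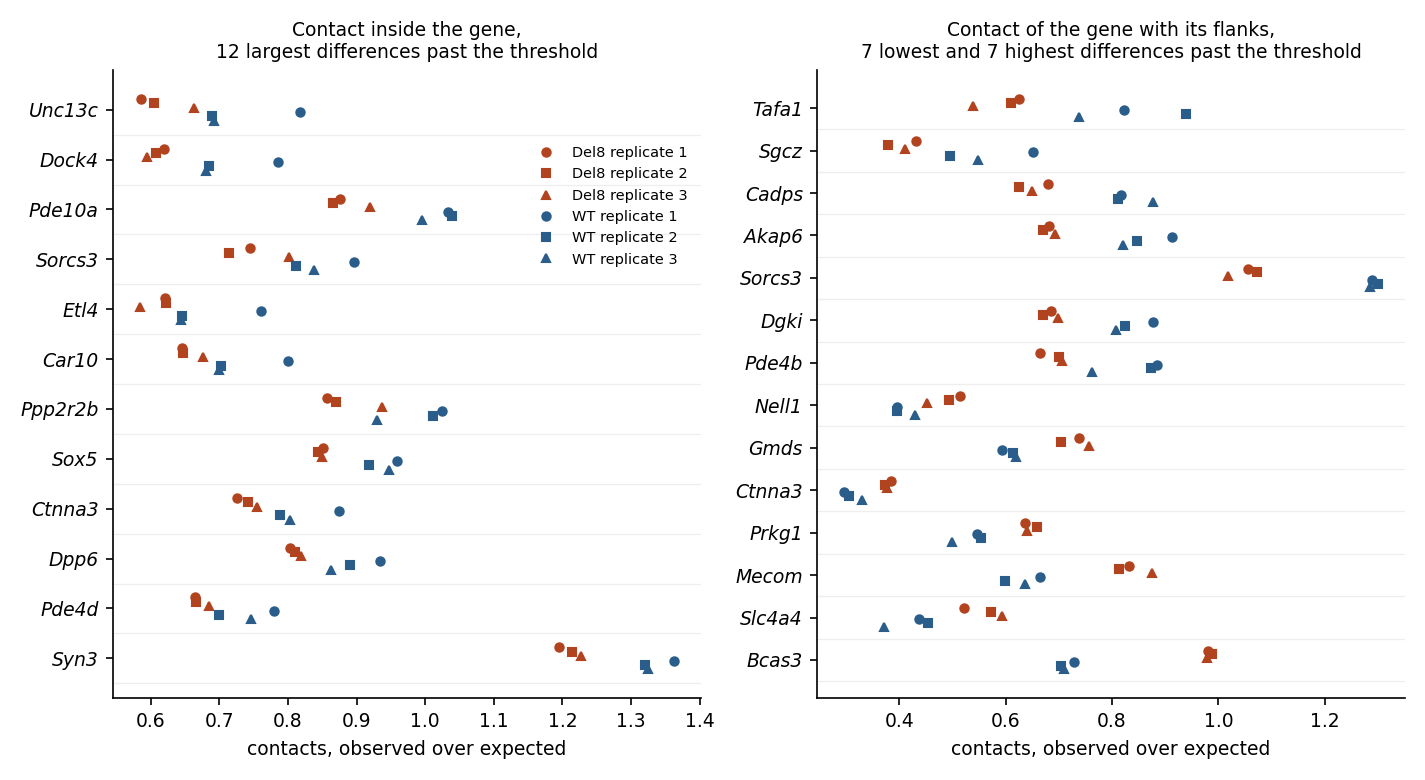
Contacts over those expected from distance and chromosome, per library (Del8 in red, WT in blue), inside the body of the 12 long genes with the largest falls (left) and between body and flanks for the 7 lowest and 7 highest log2 ratios past the threshold (right). Bcas3 toward its flanks had 0.98 to 0.99 in Del8 and 0.70 to 0.73 in WT.

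Few single pairs of bins inside long genes passed a test. Of 6951 pairs 100 kb to 1 Mb apart with a mean of 10 or more contacts, edgeR called 60 lower (0.863%) and 22 higher (0.317%) in Del8, against a background of 2.08% called over 298181 pairs, 1.01% lower and 1.07% higher. The median log2 ratio was -0.14 at 350 to 500 kb and -0.16 at 550 kb to 1 Mb in long genes, and 0.01 and -0.01 over all pairs. Cdh13 (T-cadherin) had 6 lower and 4 higher of 228 pairs, and Auts2 had 6 lower and 0 higher of 150. The deepest fall was between chr19:22300001-22350000 and chr19:22850001-22900000 in Trpm3, a cation channel gene, with 25, 17 and 12 contacts in the Del8 libraries and 24, 23 and 37 in the shallower WT libraries (log2 ratio -1.45 ± 0.29, SE; edgeR adjusted p = 0.0008). The largest rise was between chr13:109050001-109100000 and chr13:109550001-109600000 in Pde4d, with 31, 23 and 23 contacts in Del8 and 7, 0 and 6 in WT (log2 ratio 1.84 ± 0.44, SE; edgeR adjusted p = 0.0070). In Plcb1, a phospholipase C gene, a pair 100 kb apart had 56, 39 and 35 contacts in Del8 and 7, 7 and 14 in WT (log2 ratio 1.57). The pairs in Trpm3 and Plcb1 passed with any 1 library left out, and the Pde4d pair did not pass without WT replicate 2 (edgeR adjusted p = 0.12). The lower pairs numbered 26, 23 and 27 without Del8 replicates 1, 2 and 3 in turn and 24 and 35 without WT replicates 1 and 2 in turn, and the higher ones 10 without Del8 replicate 3 and 10 without WT replicate 2. DESeq2 called 9 lower and 5 higher.

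No change of compartment was called. The preference of a bin for A over B bins 2 Mb or more away gave 0 calls among 27673 usable bins in limma's test, a background of 0%. At an unadjusted p under 0.05, 128 of the 1881 bins in long genes were higher and 54 lower in Del8. Over all 27673 bins, 1209 were higher and 1153 lower at that p, and the smallest adjusted p was 0.35. The median preference in long genes was -0.06, -0.02 and -0.06 in the Del8 libraries and -0.14, -0.10 and -0.04 in the WT libraries, which overlap. The smallest p among rises was in Sox5 (a transcription factor of chondrocytes and neurons), with -0.27, -0.06 and 0.07 in Del8 and -0.86, -0.84 and -0.89 in WT (limma adjusted p = 0.35), and among falls in Elmo1 (a regulator of Rac with DOCK proteins), with -0.11, -0.05 and 0.12 in Del8 and 0.90, 0.67 and 1.03 in WT (limma adjusted p = 0.35).

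Grouped by what the proteins do, long genes of each kind had more bins with a lower than with a higher insulation score in Del8, beside a background of 31.3% lower and 33% higher. Over all long genes the shares were 52.9% lower and 11.3% higher. The lists ran from 42.4% to 58.7% lower and from 3.08% to 17.2% higher. Whether any list departs from long genes as a whole was not tested. Among 191 scored bins of synaptic and neural adhesion genes 108 were lower and 15 higher. The examples are Tenm4, at -0.31 in its most changed bin, and Cdh13, at 0.36. Axon guidance and growth factor genes had 34 of 65 bins lower and 2 higher, with Slit3, a secreted ligand of Robo receptors, at -0.29 and Plxna4 at -0.28. Ion channel and neurotransmitter receptor genes had 64 of 109 bins lower and 10 higher, with Dpp6 at -0.33 and Asic2, an acid-sensing sodium channel, at -0.29. Scaffold and signalling genes had 91 of 174 lower and 19 higher, with rises of 0.44 in Dlgap1 and 0.42 in Dock4 as the largest changes. Transcription and RNA-binding factor genes had 77 of 146 lower and 23 higher, with Auts2 at 0.38 and Zfp536, a neuronal zinc finger repressor, at 0.37. Common fragile site genes had 50 of 118 lower and 10 higher, with Auts2 again and Dab1, an adaptor in reelin signalling, at -0.22. Housekeeping enzyme and trafficking genes had 42 of 99 lower and 17 higher, with Trappc9, a subunit of a vesicle tethering complex, at 0.36 and Smyd3, a lysine methyltransferase, at 0.34. In gene-body contact the lists had 2, 1, 2, 5, 2, 3 and 0 genes lower in the same order, out of 20, 7, 15, 30, 20, 14 and 14 tested, and 0 higher in each. The shares lower were 5.28% over all 739 genes tested and 11.2% over the long genes, so counts this small set no list apart. The lists share members, 166 long genes are in none, and the share of whole bins that were usable was between 27.1% in the fragile site list and 59.4% in the transcription factor list.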

How the data were processed

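The deposited files hold, per library, raw contact counts between 50 kb bins of each chromosome. Per the submitters' processing notes the build is mm10, and per the labels' protocols nuclei were cut with MboI and ligated in situ; the aligner, the removal of bins and the pairing of reads are named in none of the sources used here. Diagonal counts were halved. Bins were usable with within-bin contacts in all 6 libraries. Maps were balanced per chromosome (100 iterations, diagonal left out; numpy 2.4.6). Contacts were tested as counts with edgeR 4.0.16 (mean of 10 or more, offsets from expected contacts), scores with limma 3.58.1, each over all features tested with Benjamini-Hochberg adjustment at 0.05; DESeq2 1.42.0 was an alternative. Gene lengths come from the GRCm38.p6 RefSeq table. PCR reads are not independent molecules, so precision from counts alone would cover counting error only. The SEs printed for edgeR and limma also take in the spread between libraries of a group, as each tool models it. Replicate numbers did not pair the libraries. The genes named are the 12 largest changes past the threshold in each direction and the 10 longest (body and flank contact), 6 bins in each direction (insulation score), 5 pairs in each direction, and the 2 largest changes in each list. Members, lists and tests were chosen with earlier results of these data known. Chromosome X was not used. Not every gene that meets the naming rule is reported here.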

Additional observations from a re-analysis of the deposited data

How the results depend on the processing

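The number of bins in long genes with a lower insulation score, 733, kept to within 1.5 times under each planned setting other than the looser screen, the 250 kb square (395) and genes of 500 kb or more (470, from fewer bins); the higher ones numbered 385 in the bins kept in 4 libraries, where more bins were scored. Without 1 library the lower bins numbered 655 to 740 and the higher ones 134 to 166. The looser screen takes in bins removed from WT replicates 1 and 2. With it, lower and higher counts were 0 for insulation score, gene-body contact, gene-to-flank contact and bin pairs, in long genes and over all features. The difference in the share of contacts inside long genes was 0.602 percentage points with that screen, against -0.0417. The difference in the observed over expected ratio at 350 to 500 kb was 0.147 against -0.0849. That ratio difference was -0.0736 without WT replicates 1 and 2, -0.0414 in the bins kept in 4 libraries, and -0.0906 to -0.0810 without 1 library; the share difference was -0.0949 to 0.00163 without 1 library. Genes with lower body contact, 24, numbered 15 without WT replicates 1 and 2, 2 with TMM scaling and 0 to 24 without 1 library, and genes with higher body contact, 0, numbered 1, 5 and 0 to 4 in those settings, 4 in the bins kept in 4 libraries and 16 with bin biases in the offsets. Genes lower toward their flanks, 64, numbered 32 without WT replicates 1 and 2, 39 in the bins kept in 4 libraries, 41 for genes of 500 kb or more and 45 to 65 without 1 library; genes higher, 30, numbered 17, 32, 19 and 17 to 37 in those settings and 50 with bin biases. Lower bin pairs, 60, numbered 6 without WT replicates 1 and 2, 4 in the bins kept in 4 libraries, 9 with DESeq2 and 23 to 42 without 1 library; higher ones, 22, numbered 3, 3, 5 and 10 to 17. A/B preference gave 0 calls in every setting run. The causes of these shifts were not tested.

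With the looser screen, signs turned for body contact of Etl4 (0.0075) and Ctnna3 (0.19), for flank contact of Tafa1 (0.56), Sgcz (0.17), Cadps (0.076), Dlg2 (0.0051), Gm37013, Gm38666 and Gm38667 (-0.021 each) and Cacna1d (-0.022), and for the insulation scores of the named bins of Dgki (5.23), Dlgap1 (0.05), Frmd4a (9.10), Dpp6 (0.54) and Kalrn (7.97). With bin biases in the offsets they turned for body contact of Sorcs3 (0.068), Car10 (0.029) and Ctnna3 (0.015). In the bins kept in 4 libraries they turned for flank contact of Sgcz (0.0070) and body contact of Magi2 (-0.11, edgeR adjusted p = 0.046). Same-numbered libraries of the 2 genotypes did not deviate together, with correlations of 0.014, -0.015 and -0.019 for insulation scores and -0.070, -0.070 and -0.20 for body contact, so the numbers are labels only. With a replicate block the lower and higher counts were 727 and 154 for insulation, 17 and 0 for body contact, 61 and 25 for flank contact, 47 and 22 for bin pairs and 0 and 0 for A/B preference. WT replicates 1 and 2 limit the depth: with 1093 to 1111 contacts in the median usable bin, single pairs of bins carry few contacts each.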
